A study of Mus musculus with 6 samples.

Results

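Structural myelin genes are described here in the brains of mice that lack the neural cell adhesion molecule NCAM and in wild-type brains. The group holds 8 genes, Mbp, Mobp, Mag, Mog, Cnp, Ugt8a, Mal and Cldn11, and was taken as every probe set whose single annotated gene symbol is 1 of the 8. This gave 14 of the 12422 probe sets on the array, and 8 of 8252 singly named genes. They were chosen by their knockout and wild-type signals on these same arrays, so their differences between the genotypes are given as a description and carry no test. A probe set is a group of array probes read as 1 signal for 1 transcript; probe sets are called here by gene and brightness, and their array identifiers stand in the plots.

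The knockout group was 3 male C57BL/6J mice with a constitutive knock-out of Ncam, the gene now called Ncam1, and the wild-type group was 3 male mice of the same genetic background. A constitutive loss removes the gene product from every cell throughout life, in neurons as well as in glia. Replicates 1 and 2 of either genotype were taken at an age of 2 months, and replicate 3 at 3 months. RNA came from total brain and each animal had its own array, so n = 3 animals a group.

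Myelin is the stacked membrane that oligodendrocytes wrap around axons in the brain. Mbp and Mobp encode small basic proteins that lie between the cytoplasmic faces of the membrane, Cnp an enzyme of the channels that stay open in it, Mag an adhesion protein of the innermost layer facing the axon, and Mog a protein of the outermost surface. Ugt8a makes galactosylceramide, the main glycolipid of myelin, Mal is a small membrane protein of lipid-rich domains, and Cldn11 forms the tight junctions between the layers. Their transcription in maturing oligodendrocytes depends on the factors Sox10 and Myrf.

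The stretches just upstream of 4 of these genes are shown because they carry the letters of the SOX and MYRF motifs. The sequences are from RefSeq (GRCm38.p6), which held an entry for 7 of the 8 genes in the table used, and each is the 250 bases before the annotated start site, 5′ to 3′ on the strand of the gene. Capitals mark CTTTGT, a core of the SOX motif, and CTGGCAC or CTGGTAC, forms of the MYRF motif, on either strand. None of the marked matches overlap.
Mobp, chr9:120149492-120149741, plus strand: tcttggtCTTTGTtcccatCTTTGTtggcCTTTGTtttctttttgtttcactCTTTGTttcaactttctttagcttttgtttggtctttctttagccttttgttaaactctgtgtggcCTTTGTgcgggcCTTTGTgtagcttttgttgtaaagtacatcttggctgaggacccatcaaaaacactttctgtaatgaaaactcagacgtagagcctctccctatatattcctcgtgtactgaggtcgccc
Mag, middle of 3 annotated starts, chr7:30914864-30915113, minus strand: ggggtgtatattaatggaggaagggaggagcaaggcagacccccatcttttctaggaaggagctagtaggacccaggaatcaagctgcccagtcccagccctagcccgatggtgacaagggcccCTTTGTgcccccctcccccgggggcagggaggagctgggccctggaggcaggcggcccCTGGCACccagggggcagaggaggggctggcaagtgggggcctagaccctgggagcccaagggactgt
Mog, chr17:37023399-37023648, minus strand: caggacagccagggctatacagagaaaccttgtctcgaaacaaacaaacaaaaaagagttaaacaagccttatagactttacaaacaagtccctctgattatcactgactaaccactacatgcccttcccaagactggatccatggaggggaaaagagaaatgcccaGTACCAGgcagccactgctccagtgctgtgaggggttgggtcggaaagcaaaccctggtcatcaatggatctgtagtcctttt
Cnp, chr11:100574689-100574938, plus strand: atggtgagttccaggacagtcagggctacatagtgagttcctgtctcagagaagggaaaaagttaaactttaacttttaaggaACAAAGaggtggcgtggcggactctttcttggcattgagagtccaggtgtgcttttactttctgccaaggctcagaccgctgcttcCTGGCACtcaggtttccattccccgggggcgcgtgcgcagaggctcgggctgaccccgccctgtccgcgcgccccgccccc

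Mobp held 6 copies of the SOX letters, all in the same orientation and the first of them 243 bases before the start site. Of 32851 upstream stretches of the same length, 16.5% held at least 1 copy and 1, that of Mobp, held 6, the highest count. Much of this stretch is a run of short T-rich repeats with the same letters. The MYRF letters were found once each in Mag, Mog and Cnp, at 68, 83 and 81 bases before the start site, against 5.93% of all stretches. The most downstream Mag start had neither motif, and the stretch of the most upstream one overlaps the stretch printed. Ugt8a, Mal and Cldn11 had no copy of either in this window. The letters were searched after the Mobp stretch had been read, and a match is a description of the sequence alone.

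**Figure D1:**
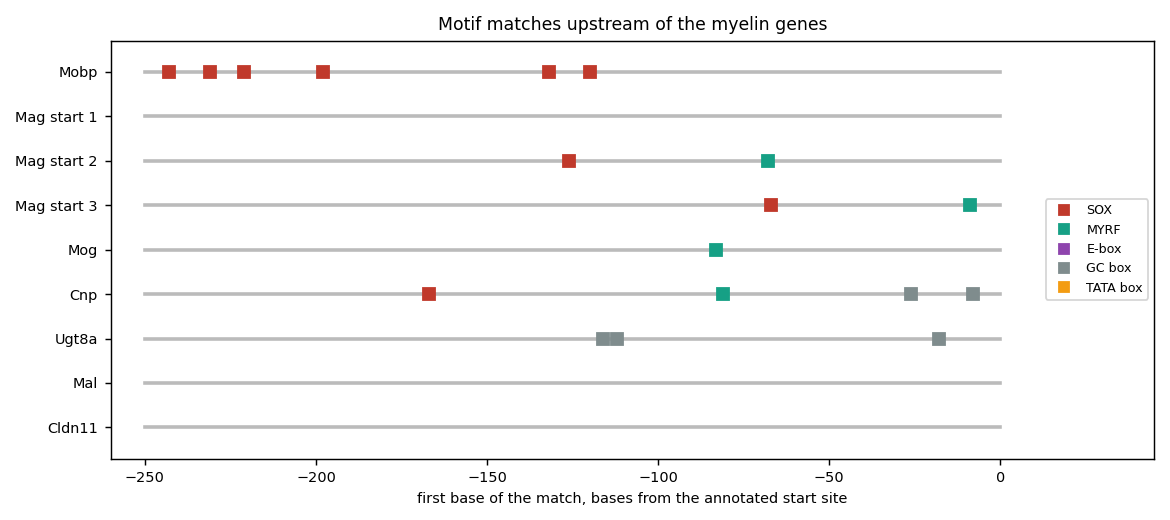
The plot maps motif matches in the 250 bases upstream of each annotated start site of 7 myelin genes, with the first base of each match as its distance from the start. Mobp shows 6 SOX matches, Mag and Cnp show 1 in a stretch together with a MYRF match, and Mog shows a MYRF match alone. GC boxes (GGGCGG, in 32.7% of all stretches) appear in Cnp and Ugt8a, where a pair of them overlap, and E-boxes (CAGCTG or CAGATG, 25.5%) and TATA boxes (TATAAA, 12.4%) in none.

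Facts of the whole series that touch these genes are given first. Ncam1, by its brightest probe set, read 276.2, 208.7 and 327.4 in knockout replicates 1, 2 and 3 against 1346, 1448 and 1217 in wild-type replicates 1, 2 and 3, and was lower with an adjusted p of 0.00076 in limma. The position of the deletion relative to these probes was not analysed here. A sign of RNA quality, the 3′ to 5′ signal ratio of the Gapdh control, lay between 0.811 and 0.826 for the knockout arrays, above the wild-type range of 0.768 to 0.798. The same ratio of the beta-actin control overlapped, at 1.145 to 1.223 against 1.084 to 1.196. Knockout replicate 2 had little cerebellar signal, with a list median of -1.79 on the log2 scale over 10 genes against the wild-type mean, where the other arrays lay between -0.13 and 0.06. In knockout replicate 1 pituitary genes stood at a list median of 2.84 over 5 genes, against at most 0.49 elsewhere. The part of these differences in the myelin values was not tested.

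Of the 14 probe sets 13, covering 7 genes, were bright enough to be kept, which asked for a mean log2 value of at least 6.46. The Cnp probe set was the exception, with a signal of 9.81, 38.2 and 22.9 in knockout replicates 1, 2 and 3 and 8.52, 12.8 and 19.7 in wild-type replicates 1, 2 and 3. Cnp is abundant in oligodendrocytes as a rule, so this probe set read near the floor of the array and no difference is given for it. Just inside the limit lay the dimmer Mag and Cldn11 probe sets, with mean signals of 80.0 and 81.8 over the 6 arrays. The limit corresponds to a signal of 72.2. The dim Mag probe set had a wild-type mean of 71.9 and a knockout mean of 88.2, so it was kept through its knockout values. For the dim Cldn11 probe set these means were 72.6 and 91.1. All values below are linear signals. A difference is the knockout mean less the wild-type mean of log2(signal + 16), with its standard error (SE) from limma.

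Mobp was lower in knockout brains by each of its 4 probe sets, and by 3 of them every knockout animal lay below every wild-type animal. The probe set with the widest gap read 1550.1, 1577 and 1308 in knockout replicates 1, 2 and 3. In wild-type replicates 1, 2 and 3 it read 2235, 2061 and 2424. Knockout replicate 3 was the lowest animal and wild-type replicate 3 the highest, although both were 3 months old. The group means were 1478 ± 148 (SD, n = 3) and 2239.7 ± 181, a log2 difference of -0.60 ± 0.09, or 1.51-fold lower.

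The next Mobp probe set read 2821, 2658 and 2453 in knockout against 3525, 3443 and 3682 in wild-type replicates 1, 2 and 3, with a log2 difference of -0.42 ± 0.07. Whether its probes share sequence with those of the one with the widest gap could not be checked. Both were read on the same animals, so these values are not independent readings of the gene. The brightest one read 3809, 4034 and 3486 in knockout against 4498, 4511 and 4134 in wild-type animals, a smaller difference of -0.21 ± 0.07. Here the nearest animals of the groups stood at 4034 and 4134, and the groups overlapped after median centring of the arrays. The dimmest one read 990.5, 934.1 and 694.4 against 1058, 1120.3 and 870.2 (-0.22 ± 0.14), with overlap. The size of the Mobp difference thus ran from -0.21 to -0.60 depending on the probe set. Mobp lies on chromosome 9, the chromosome that also carries Ncam1. The distance between them was not analysed here, and its part in the Mobp values was not tested.

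Mbp was close to equal between the genotypes by both of its probe sets. The brighter one read 5657, 5592 and 5700.3 in knockout against 6006, 5954 and 5989 in wild-type replicates 1, 2 and 3. Every knockout animal was lower, but the knockout mean was still 94.4% of the wild-type mean, a log2 difference of -0.08 ± 0.05. Its 6 values were, relative to their mean, the tightest of the myelin probe sets within each group, with an SD of 54.7 in knockout and 26.9 in wild-type animals. The dimmer one read 378.1, 560.0 and 421.1 against 433.6, 440.7 and 546.5, with overlap and a difference of -0.07 ± 0.15.

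Mag, the adhesion protein that faces the axon, read 831.1, 816.1 and 630.6 in knockout replicates 1, 2 and 3 by its bright probe set. Wild-type replicates 1, 2 and 3 read 941.3, 999.5 and 1151. The groups did not overlap, and again the extreme values were the 3-month-old animals of each genotype. The log2 difference was -0.44 ± 0.12, or 1.36-fold lower. A dim and less specific Mag probe set went the other way, with 83.6, 76.8 and 104.3 against 58.6, 74.3 and 82.7 and a difference of 0.25 ± 0.19. Its knockout values alone brought it over the filter limit. Mog, at the outer surface, read 396.5, 329.7 and 329.2 against 392.1, 480.8 and 368.8, with overlap and a difference of -0.22 ± 0.12.

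Ugt8a, the enzyme of galactosylceramide synthesis, read 224.9, 252.9 and 223.7 in knockout against 345.3, 280.1 and 338.1 in wild-type replicates 1, 2 and 3. No knockout animal reached the lowest wild-type value. The means were 233.8 ± 16.5 and 321.2 ± 35.8 (SD, n = 3), a difference of -0.43 ± 0.11, or 1.35-fold lower. Mag and Ugt8a had the widest differences by the brightest probe set of each gene, where Mobp and Mog were alike at -0.21 and -0.22.

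Mal and Cldn11 did not share this pattern. Mal read 1284, 1359 and 1081 in knockout against 1382, 1286 and 1059 in wild-type replicates 1, 2 and 3, a difference of 0.00 ± 0.12 which was -0.01 after median centring. Cldn11, by its bright probe set, read 1434, 1379 and 823.6 against 1097, 1391 and 867.1, a difference of 0.10 ± 0.22 whose sign turned when knockout replicate 1 or 2 or wild-type replicate 3 was left out. The dim and less specific one read 128.6, 79.6 and 64.9 against 70.8, 70.6 and 76.4, a difference of 0.23 ± 0.22. In both genes the genotypes overlapped, and in both the 3-month-old animals of either genotype lay at the bottom by the bright probe set.

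**Figure D2:**
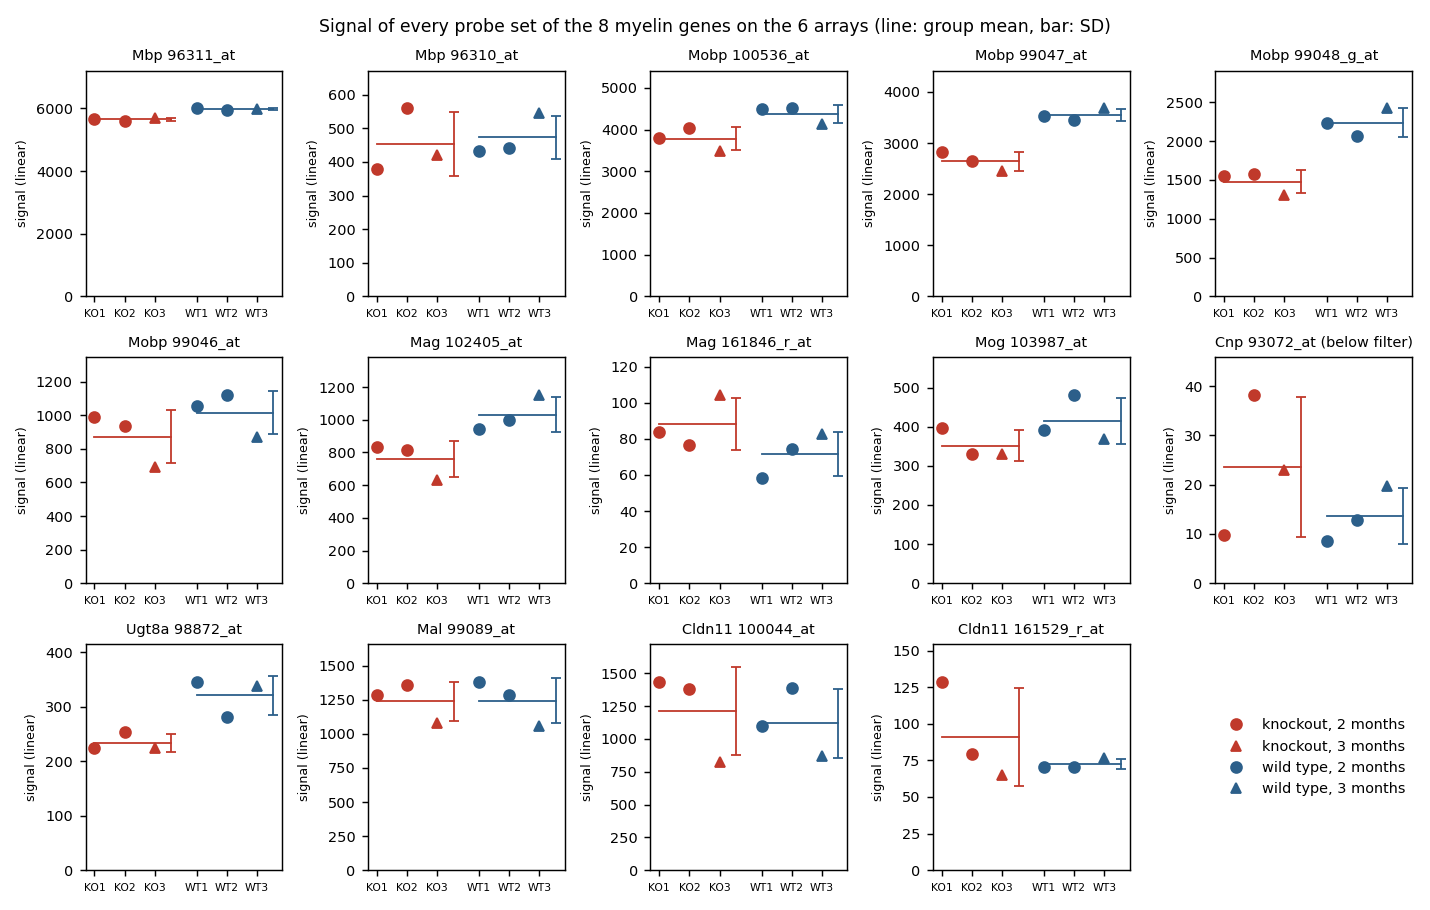
Each panel plots the linear signal of 1 myelin probe set, from 0, on the 6 arrays; red is knockout, blue wild type, circles are 2-month-old and triangles 3-month-old animals, lines are group means and bars SD (n = 3). The red and blue points are apart for Ugt8a, the bright Mag and Mbp probe sets and every Mobp probe set but the dimmest. The triangles lie lowest for Mal, the bright Cldn11 probe set and the dimmest Mobp probe set.

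Of the probe sets that were kept, 9 of 13 were lower and 4 higher in knockout brains, where 49.6% of all 7453 tested probe sets were lower. The higher ones include the dim Mag probe set, which was kept through its knockout values, and the dim Cldn11 probe set near the limit. Groups without overlap and lower in knockout were found for 6 of 13, in 4 genes, against 6.8% of all tested probe sets, and for 0 in the other direction against 6.08%. These shares come from the values that chose the genes and nothing is read from them. With 1 probe set per gene, the brightest, the 7 genes had a median log2 difference of -0.21, where the median of all 5665 genes was -0.0016. Without wild-type replicate 2 the median was -0.11, and it was -0.10 when the probe sets of a gene were averaged. Without knockout replicate 2, the animal with little cerebellar signal, it was -0.18, and without knockout replicate 1, the animal with pituitary signal, -0.22. In a whole brain, fewer oligodendrocytes and less RNA per oligodendrocyte cannot be told apart.

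**Figure D3:**
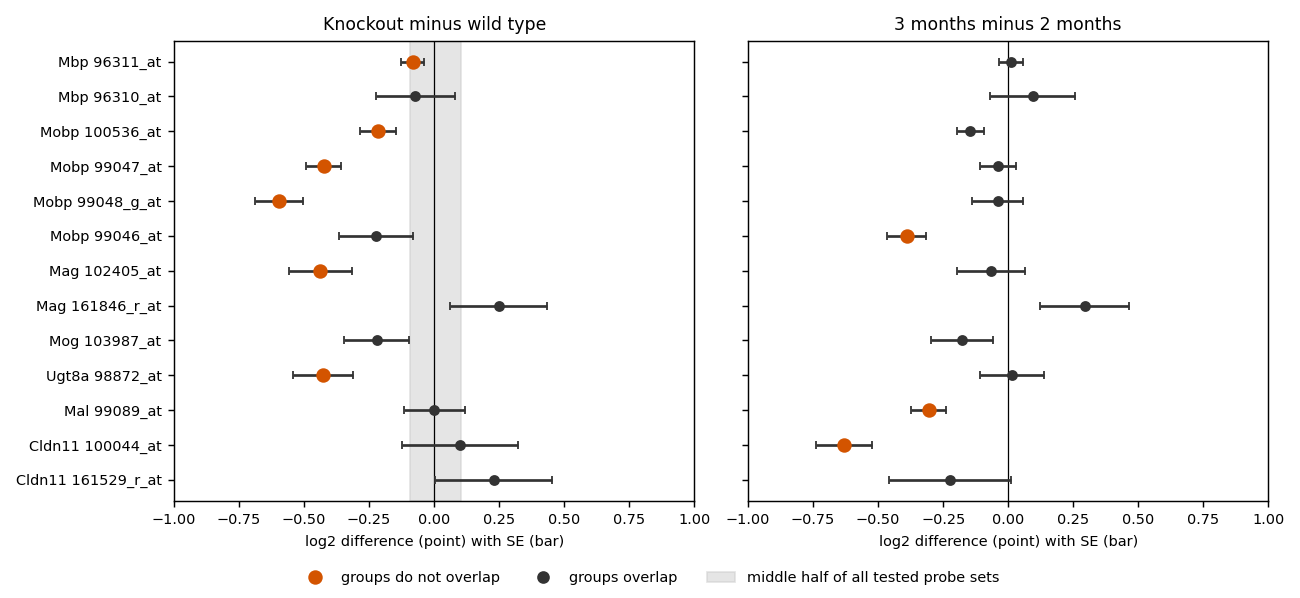
The left panel shows the knockout minus wild-type log2 difference and the right panel the 3-month minus 2-month log2 difference of the 13 kept probe sets, with SE as bars; orange points are probe sets whose groups do not overlap, and the grey band of the left panel is the interquartile range of all 7453 probe sets. The Mobp probe sets with the widest gaps, the bright Mag probe set and Ugt8a lie furthest left in the first panel, and the dim Mag probe set furthest right. The dim Mag probe set was kept through its knockout values. In the second panel the bright Cldn11 probe set, the dimmest Mobp probe set and Mal lie furthest left.

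Age is a comparison that played no part in the choice of the genes, and it separated them differently. It asked whether myelin transcripts differ between the 2 animals of 3 months and the 4 of 2 months, with genotype as a covariate. Cldn11 by its bright probe set read 823.6 and 867.1 at 3 months and 1097 to 1434 at 2 months. Its log2 difference was -0.63 ± 0.11, at rank 15 by p among 7453 probe sets, but it did not pass (unadjusted p = 0.000401, adjusted p = 0.187 in limma). The difference was -0.76 within knockout and -0.50 within wild-type animals. The dim Cldn11 probe set had -0.22 ± 0.23.

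Mal read 1059 and 1081 at 3 months against 1284 to 1382 at 2 months, a difference of -0.31 ± 0.07 (adjusted p = 0.250 in limma). The difference was -0.29 within knockout and -0.33 within wild-type animals. Among the Mobp probe sets the dimmest was lower at 3 months in both genotypes, at 694.4 and 870.2 against 934.1 to 1120.3, and had -0.39 ± 0.07 (adjusted p = 0.230 in limma). The other Mobp probe sets had -0.15 ± 0.05, -0.04 ± 0.07 and -0.04 ± 0.10, so the probe set with the largest age difference was not one with a large genotype difference. Mbp (0.01 ± 0.05 by its bright probe set) and Ugt8a (0.01 ± 0.12) were close to 0, and Mog had -0.18 ± 0.12.

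Of the 13 probe sets 9 were lower at 3 months, against 48.9% of all. None passed for age in limma, and 4 were lower and 0 higher at an unadjusted p under 0.05. Over all probe sets 0% passed as lower and 0.0268% as higher, and 6.09% were lower and 6.31% higher at the unadjusted threshold. The ages did not overlap, with 3 months lower, for 3 of the 13, against 10.3% of all, and with 3 months higher for 0, against 11.4%. The 2 probe sets called for age were the immediate early genes Dusp1, at 1178 and 1138 against 513.4 to 607.2 (log2 1.08 ± 0.08, adjusted p = 0.0113 in limma), and Fos, at 809.0 and 668.1 against 113.9 to 304.4 (1.93 ± 0.19, adjusted p = 0.0363). Next among higher probe sets came Clk1 (0.58 ± 0.07) and Jmjd6 (0.56 ± 0.08), and among lower ones Pus1 (-0.94 ± 0.13), Skp1 (-0.50 ± 0.07), Kif5b (-0.54 ± 0.08) and Mrpl27 (-0.46 ± 0.07), none of which passed. Such early genes respond within minutes to stimulation or handling, and the part of that in the lower Cldn11, Mal and Mobp signals was not tested.

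Whether the genotype difference itself changed with age was asked by an interaction term, added after the data had been seen. Mag differed by -0.23 between the genotypes at 2 months (2 animals each) and by -0.85 at 3 months (1 animal each), since its signal was lower in the older knockout animal and higher in the older wild-type animal. The change of -0.62 ± 0.14 did not pass (unadjusted p = 0.00392, adjusted p = 0.601 in limma). The Mobp probe set with the widest gap differed by -0.45 at 2 months and -0.88 at 3 months, a change of -0.43 ± 0.13 (adjusted p = 0.788). Of the 13 probe sets 0 passed and 2, these, had an unadjusted p under 0.05. Of all probe sets 0.0268% passed and 5.7% had an unadjusted p under 0.05. Ugt8a was lower in knockout at both ages, with differences of -0.36 at 2 months and -0.56 at 3 months. Knockout replicate 3 had the lowest signal of all 6 arrays for 9 of the 13 probe sets, against 20.0% of all probe sets. The choice of the genes by their knockout and wild-type signals favours this count. It also holds every Mobp probe set and both Cldn11 probe sets, which are not independent readings.

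Other genes of myelin and of mature oligodendrocytes, from a list of 41 that excluded the 8, were mostly lower in knockout brains too, with a smaller median difference. This list and those below were chosen with earlier results of these data known, so their counts are a description and nothing is read from them. The array carried 22 of the 41 genes. Of 20 measured genes 17 were lower and 3 higher, where 49.6% of all probe sets were lower, with a median log2 difference of -0.13. Without overlap 7 were lower and 1 was higher, against 6.8% and 6.08% of all probe sets. None passed in limma over all probe sets (background 0.0134% lower and 0.0134% higher), and 6 were lower and 1 higher at an unadjusted p under 0.05, against 3.68% and 3.26% of all probe sets. Cryab, a small heat shock protein, had -0.45 ± 0.10 by a less specific probe set, Qdpr, a pteridine reductase, -0.23 ± 0.06, and Dbndd2 -0.16 ± 0.06. Dbndd2 was the tightest of them, at 1422, 1429 and 1462 in knockout against 1587, 1603 and 1629 in wild-type replicates 1, 2 and 3. The tetraspanin Cd9 was the one gene higher without overlap, at 508.3, 369.7 and 387.2 against 362.1, 320.1 and 208.1, a difference of 0.51 ± 0.20 (adjusted p = 0.719 in limma). Without wild-type replicate 2 the list median was -0.08.

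Genes of oligodendrocyte precursors and of the lineage's transcription factors were not lower as a list. By the brightest probe set of each gene, 6 of 15 measured genes were lower and 9 higher, with a median of 0.04. Of all probe sets 49.6% were lower. None passed in limma, where 0.0134% of all probe sets did each way, and 0 had an unadjusted p under 0.05. At that threshold 3.68% of all probe sets were lower and 3.26% higher. With 15 genes these shares leave few or none to be found, so the 0 is not read as a result. Sox10, whose motif letters recur upstream of Mobp, read 608.6, 660.9 and 674.9 in knockout against 631.9, 636.2 and 631.5 in wild-type replicates 1, 2 and 3. The groups overlapped and the difference was 0.03 ± 0.08. Myrf had -0.03 ± 0.11 and Pdgfra, the growth factor receptor of precursors, 0.14 ± 0.12. Dimmer probe sets of Sox10 (-0.17 ± 0.16), Pdgfra (-0.22 ± 0.25) and Yy1 (-1.0 ± 0.29) had the opposite sign to the brighter ones. The dimmer Yy1 probe set was lower without overlap, at 39.8, 107.5 and 51.7 in knockout against 121.8, 124.5 and 176.5 in wild-type replicates 1, 2 and 3. The genes of this list with the lowest p were Sox11 (0.45 ± 0.21), Yy1 (0.17 ± 0.10), the kinase Fyn (-0.23 ± 0.13) and Nkx2-2 (0.19 ± 0.15). Fyn and Pdgfra were also lower at 3 months, with -0.32 ± 0.08 and -0.29 ± 0.08, without passing (adjusted p = 0.264 for each in limma). Olig1 and Olig2 were not analysed here.

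Genes of the axons that myelin wraps had a median of -0.06 over 10 genes. Of these 8 were lower and 2 higher, where 49.6% of all probe sets were lower. Without overlap 1, Kcna2, was lower and 1, Ank3 by its brighter probe set, higher, against 6.8% and 6.08% of all probe sets. None passed, where 0.0134% of all probe sets did each way, and with 10 genes this is not read as a result. Ank3, which anchors channels at nodes of Ranvier, had 0.22 ± 0.09 by 1 probe set and 0.01 ± 0.10 by another. Kcna2 had -0.20 ± 0.12, Nefm 0.19 ± 0.13 and Cntnap1 -0.15 ± 0.13. Genes that supply glycolipid and cholesterol had -0.04 over 10, 8 of them lower, against the same 49.6%. None passed and none lay without overlap in either direction, against the same shares of all probe sets. Sqle had -0.15 ± 0.09, Hmgcs1 -0.12 ± 0.09, Cyp51 -0.24 ± 0.19 and Ugcg 0.13 ± 0.11. Of the 4 Schwann cell markers, which would mark attached nerve roots, Egr2 was the one measured. Egr2 is also an immediate early gene of neurons, and it read 213.1 and 213.7 at 3 months against 82.7 to 132.9 at 2 months (1.02 ± 0.17, adjusted p = 0.187 in limma).

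Markers of other brain cells were set beside the myelin genes for the make-up of the samples. The summed signal of the 7 measured myelin genes was 12275 to 13762 in knockout against 13907 to 14902 in wild-type brains. That of 7 of 8 astrocyte markers was 11417 to 12511 against 12628 to 12981, also without overlap, with a median log2 difference of -0.15 and 4 markers lower. Of all tested probe sets 49.6% were lower. Most of the myelin sum came from Mbp and Mobp. The list medians of the myelin genes overlapped, at -0.081 in knockout replicate 1 and -0.082 in wild-type replicate 3. The largest part of the astrocyte sum came from Aldoc, whose groups overlapped, at 5285 to 5953 in knockout against 5837 to 6939 in wild-type brains. By the brightest probe set of each gene, S100b had -0.41 ± 0.14 and Aqp4 -0.28 ± 0.10, both lower without overlap, and neither passed. Gja1, named after its values were seen, was higher without overlap (0.17 ± 0.07), and Gfap (0.06 ± 0.15) and Gjb6 (0.01 ± 0.08) overlapped. Dimmer probe sets differed from these. That of Aqp4 was lower with overlap (-0.38 ± 0.15), and that of Gja1 had the opposite sign (-0.09 ± 0.13). The dimmer Gjb6 probe set was higher without overlap (0.21 ± 0.10). Neuronal markers, 8 of 8 measured, summed to 24717 to 25522 against 24582 to 25928, and 6 of 7 microglial markers to 2901 to 3378 against 3120 to 3240.1, both overlapping. The part of the astrocyte difference, and of the Gapdh ratio, in the myelin values was not tested.

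**Figure D4:**
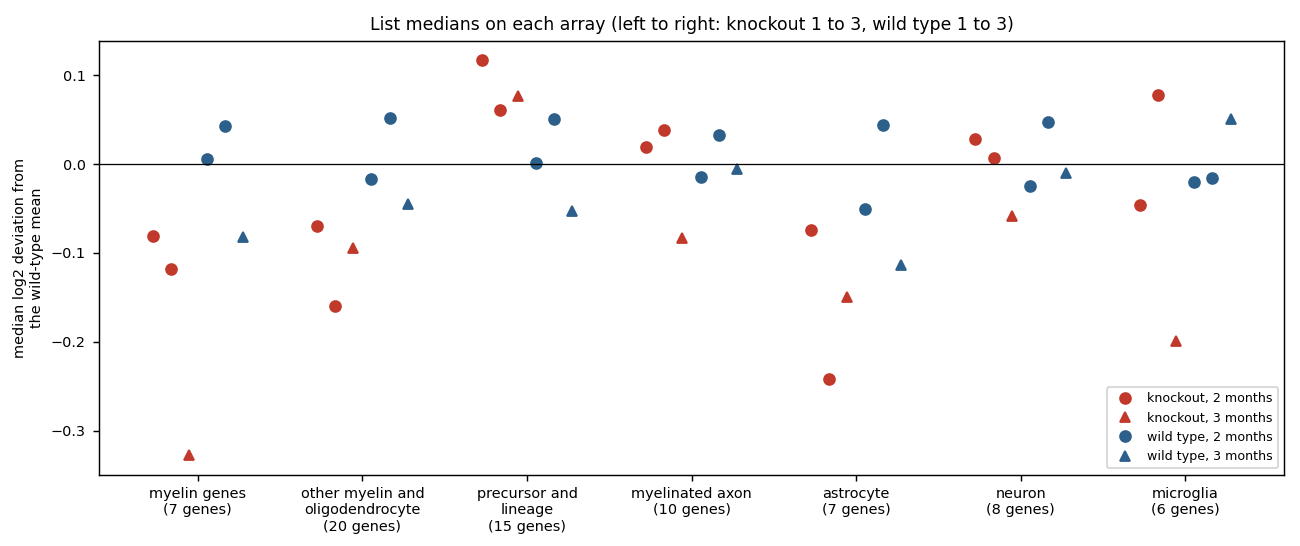
The plot gives, for 7 gene lists and each array, the median log2 deviation of the list's measured genes from their wild-type mean; colours and symbols are as in the plot of signals by array. The myelin genes lie between -0.08 and -0.33 in knockout and between -0.08 and 0.04 in wild-type animals, and the precursor list between 0.06 and 0.12 in knockout animals.

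The mean profile of the 7 measured genes over the 6 arrays was set against every other gene. It lay at -0.26 in knockout replicate 3, close to 0 in the other knockout animals and at 0.11, 0.15 and 0.01 in wild-type replicates 1, 2 and 3, each as a log2 deviation from the 6-array mean. Of the 7 genes, each itself a part of that mean, Mobp followed it most closely, with a mean absolute gap of 0.03, and Cldn11 least, with 0.25. Among 5658 other genes, whose median gap was 0.15, the smallest gaps belonged to Krr1 (0.02), Ifitm3 (0.03), Sin3b (0.03), Taf10 (0.03), Ambra1 (0.03) and Cstf1 (0.03). None of these is on the lists of myelin or oligodendrocyte genes. They are the smallest of 5658 gaps over 6 arrays, and a link to myelin was not tested.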

How the data were processed

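Total RNA of 6 mouse brains, 1 one-colour Affymetrix array each, was measured; per the labels, sample groups, ages and replicate numbers are those of separate animals. The authors deposited linear signal intensities per probe set (12488 entries), made with GCOS 1.4 per the submitters' processing notes; the labels do not record its settings. The deposited intensities had a trimmed mean of 300.2 on every array, so scaling to 1 target is apparent, which would hide a change in total RNA. Detection calls were not used here. The 66 control entries were set aside. Probe sets with a mean log2(signal + 16) at or above the 40th percentile, 7453, were fitted with limma 3.58.1 in R 4.3.3 (lmFit, eBayes with trend, two-sided), with Benjamini-Hochberg adjustment over all and a threshold of 0.05, for genotype without covariates and for age with genotype. The number of arrays limits the precision; the median SE of a difference was 0.12 for both. Genes stand by their brightest probe set in lists. Figures used matplotlib 3.10.9, and the procedure was tested on simulated data. The share of true differences that it finds at the sizes described above is not given here.

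The members and lists were chosen with earlier results of these data known. Named genes are all members, Ncam1, those fixed by name, the 4 with the lowest p per list (2 for other cell types and regions), the 6 nearest profiles and the 4 with the lowest age p each way. Lists of hindbrain (median -0.09), choroid plexus (-0.06) and endothelial genes (-0.06) had 3 measured genes each and none passed, against 0.0134% of all probe sets each way. The motifs were chosen after a sequence was read. Alternatives changed the scaling (quantile or median centring), the pseudocount (1 or 64), the filter (none, or the 60th percentile), the variance model (no trend, array weights), the summary per gene (mean of probe sets), the covariates (replicate block, age, no genotype) and the animals (each left out, or the 2-month-old ones) and, chosen after seeing the data, knockout replicate 3 alone and the interaction.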

Additional observations from a re-analysis of the deposited data

Results flagged for a closer look

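Both Cldn11 probe sets had 1 animal far from the others among the 4 animals of 2 months, where chance sets apart about 1 group in 20. The rule was applied to each of the 13 kept probe sets, with both genotypes pooled, so these gaps are a description. By the bright probe set wild-type replicate 1 read 1097 where the others read 1379 to 1434, a gap of 0.836 of the whole range. By the dim one knockout replicate 1 read 128.6 where the others read 70.6 to 79.6, a gap of 0.844 of the range. The probe sets of this gene thus set apart different animals.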

How the results depend on the processing

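In every alternative run the median of the myelin genes stayed below 0 for genotype (-0.33 to -0.10) and for age (-0.21 to -0.11), and 5 to 7 genes were lower in knockout brains. The genes were chosen by their genotype signals on these same arrays, which every run used again. The choice thus favoured a genotype median below 0, and its sign in these runs is a description. The genotype median was -0.10 when probe sets were averaged per gene, which left 2 genes without overlap in place of 4, and -0.33 for knockout replicate 3 alone against wild type. With 1 animal left out it ran from -0.26 to -0.11, the genes without overlap from 4 to 5, and the age median from -0.17 to -0.11. The median of the other oligodendrocyte genes ran from -0.14 to -0.081 with 1 animal left out, the latter without wild-type replicate 2, and that of the precursor list, 0.03 to 0.08 with 1 animal left out, was -0.035 with averaged probe sets. Over all probe sets, the genotype called 2, but 1 with quantile normalisation, median centring, no filter or no trend, 4 with array weights, and 1 to 3 with 1 animal left out (1 without knockout replicate 1 or wild-type replicate 1 or 2). Age called 2, but 1 without the filter or without the genotype covariate, 0 without the trend, and 0 to 5 with 1 animal left out (0 without any 1 of the wild-type animals, 5 without knockout replicate 3). No myelin probe set passed for age in any of these.

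The replicate number as a block left the genotype median at -0.21 and the calls at 2. Same-numbered deviations correlated at 0.015, 0.147 and 0.201 over probe sets, and each animal correlated best with its own number except knockout replicate 1 (0.081 with wild-type replicate 2), so the numbers were not taken as pairs. Signal over background limits Cnp and the dim Mag and Cldn11 probe sets.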
